A study of Mus musculus with 6 samples.

Results

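The genes described here were the 10 genes of major histocompatibility complex (MHC) class I and its peptide supply that were chosen by name: B2m, H2-K1, H2-D1, Tap1, Tap2, Tapbp, Psmb8, Psmb9, Psmb10 and Nlrc5. They were chosen for their function and not for a measured value, and all 10 were among the 17831 genes of the count table. Bulk RNAseq was performed on group 2 innate lymphoid cells (ILC2s) from mouse lung, with 3 libraries from wild-type (WT) mice, whose label reads CB57BL/6, and 3 libraries from mice with the SIRPalphatm1Ynliu/J allele (SIRPα KO). SIRPα is an inhibitory receptor for CD47. Both groups were aged 6 to 8 weeks and shared the same treatment: 0.5 μg of recombinant mouse IL-33 intranasally on each of 3 days, sorting of CD45+ lineage-negative CD127+ ST2+ lung cells on day 4, and culture with rmIL-2 and rmIL-7 at 10 ng/ml each. The culture time is given as 18 h in one place and 24 h in another. Library preparation started from 10 pg of RNA, with amplification of the cDNA. The strain background of the SIRPα KO mice and the number of animals behind each library are not given in the sources used here. In each group, 2 of the 3 libraries share a code (WT replicates 1 and 2 share 37, SIRPα KO replicates 2 and 3 share 44) and may be one sample, so n counts libraries. The description of the series speaks of duplicates, whereas the labels give 3 replicates a group. The p-values then measure the spread between libraries, which may be technical in part.

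MHC class I molecules display peptides from inside the cell to CD8 T cells and are ligands of inhibitory receptors on NK cells. Each is a heavy chain, such as the products of H2-K1 and H2-D1, bound to β2-microglobulin, the product of B2m. The peptides are cut by proteasomes, whose catalytic subunits PSMB5, PSMB6 and PSMB7 are replaced in immunoproteasomes by PSMB8, PSMB9 and PSMB10, then pumped into the endoplasmic reticulum by the TAP1 and TAP2 transporter, and loaded with the help of tapasin, the product of Tapbp. NLRC5 is the transactivator of class I genes, which acts through factors bound to a conserved promoter module, and NF-κB and interferon regulatory factors act on the same promoters.

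Libraries held 13980499 to 19051507 reads on genes. WT libraries varied more than SIRPα KO libraries, with a biological coefficient of variation (edgeR) of 38.0% against 15.2%. WT replicate 3 stood apart and had the lowest correlations with the SIRPα KO libraries (r from 0.8502 to 0.8623). Sirpa had 149, 96 and 73 reads in WT and 48, 85 and 28 in SIRPα KO, so its reads did not separate the genotypes by absence. In CPM it had 8.57, 6.83 and 4.83 in WT and 3.07, 4.46 and 1.74 in SIRPα KO, without overlap. Its log2 fold change was -1.12 and did not pass the test (adjusted p = 0.115, edgeR). The deleted bases were not mapped here. The labelled cell type was checked with 12 ILC2 markers. All 12 were detected, and they summed to 15106 to 16258 CPM in WT and 20657 to 21171 CPM in SIRPα KO. Il5 had the most reads of them. Of the 12, 8 were higher and 4 lower in SIRPα KO. Il5 and Il2ra rose past the threshold, and Id2 fell past it with a log2 difference of -0.65 (adjusted p = 0.0154, edgeR). Il1rl1, Il7r, Il13, Areg, Gata3 and Rora had log2 differences of 0.70, 0.60, 0.34, 0.29, 0.10 and 0.10 and did not pass. Nor did Arg1, Icos and Klrg1, at -0.23, -0.29 and -0.38. Fold changes across all genes also followed transcript length, which touches several of the 10 genes and is given beside them.

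In SIRPα KO ILC2s, 9 of the 10 genes had lower mean counts than in WT and Nlrc5 had a higher one, where 51.6% of all genes tested were lower. The falls of 5 genes were past the threshold of an adjusted p under 0.05 (edgeR's quasi-likelihood test, Benjamini-Hochberg over 13623 genes): H2-D1, Psmb8, Tapbp, H2-K1 and B2m, with log2 fold changes of -0.61, -0.60, -0.52, -0.48 and -0.44. None rose past it. Of all genes tested, 11.7% were called, 5.81% as lower and 5.94% as higher. With DESeq2, 6 of the 10 genes were past the threshold, beside 26.5% of the genes it tested. At an unadjusted p under 0.05 there were 8 of the 10 genes, against 32.0% of all genes. The median log2 fold change of the 10 genes was -0.46, and that of all genes was -0.025. The calls depended on the libraries used. No gene of the 10 was past the threshold when any 1 SIRPα KO library was left out or when libraries of one code were summed. In those fits 16, 17, 17 and 10 genes of the whole table were past it. Without WT replicate 1, 2 and 3 in turn, 4, 6 and 6 of the 10 genes were past it, beside 1111, 2309 and 2606 genes of the whole table.

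**Figure D1:**
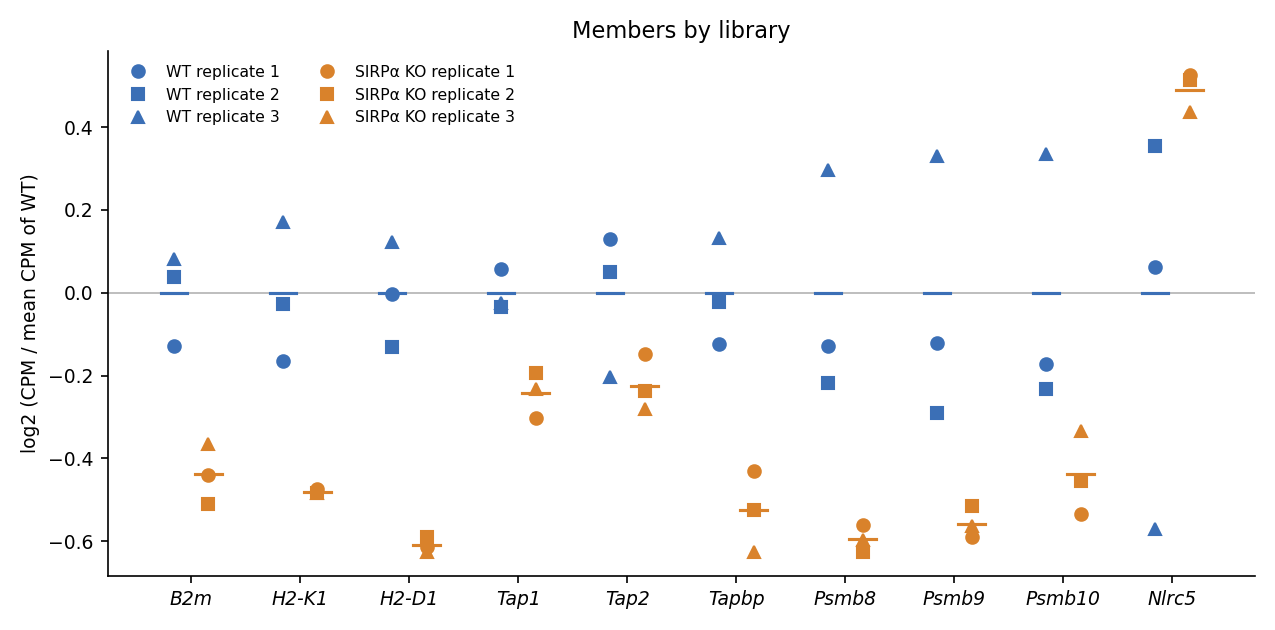
Level of each of the 10 genes in every library, as the log2 ratio of its CPM to the mean CPM of the 3 WT libraries (y axis), for WT (blue) and SIRPα KO (orange). Points are libraries, marked by replicate, and short lines are group means; the groups are apart for 9 genes and overlap for Tap2, and SIRPα KO is the higher group for Nlrc5 alone.

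WT and SIRPα KO values were apart without overlap for 9 genes of the 10, 8 lower and 1 higher in SIRPα KO, where 42.8% of all genes tested did not overlap, 21.2% lower and 21.6% higher. WT replicate 3 was the highest library for B2m, H2-K1, H2-D1, Tapbp, Psmb8, Psmb9 and Psmb10 and the lowest for Nlrc5, and for Tap2 it was the lowest WT library, as the plot of the 10 genes by library shows. Without WT replicate 3, 6 genes were past the threshold beside 18.4% of all genes, and the median of the 10 was -0.36 on the log2 scale.

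B2m, the light chain shared by all class I molecules, is on mm10 chromosome 2 from 122147686 to 122153083. Sirpa, the targeted gene, lies 7.44 Mb away on the same chromosome. Whether the bases around B2m differ between the genotypes was not tested. It had 2325, 2609 and 2687 CPM in WT and 1873, 1783 and 1971 CPM in SIRPα KO. The SIRPα KO libraries were all lower than the lowest WT library, with means of 2540 ± 190.5 and 1875 ± 93.9 CPM (SD, n = 3 each). B2m fell by 0.44 on the log2 scale (standard error 0.09, adjusted p = 0.0257, edgeR).

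H2-K1, a classical heavy chain, lies on chromosome 17 from 33996017 to 34000347, on the minus strand. Its levels were 2112, 2323 and 2668 CPM in WT and 1706, 1693 and 1692 CPM in SIRPα KO. The SIRPα KO libraries lay within a narrow range below all WT libraries (2368 ± 281 against 1697 ± 7.61 CPM, SD, n = 3 each), and H2-K1 fell by 0.48 on the log2 scale (standard error 0.10, adjusted p = 0.0268, edgeR).

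H2-D1, the other classical heavy chain, lies 1.26 Mb away on the same chromosome, from 35262730 to 35267499. It had 5273, 4824 and 5744 CPM in WT and 3447, 3509 and 3423 CPM in SIRPα KO, the most reads of the 10 genes in every library. The groups were apart, at 5280 ± 460.5 and 3460 ± 44.3 CPM (SD, n = 3 each), or 0.655 of the WT mean. H2-D1 fell by 0.61 on the log2 scale (standard error 0.08, adjusted p = 0.012, edgeR). The longest transcripts of H2-K1 and H2-D1 aligned with 90.7% identity over 80.1% of the length, short of the 95% taken here as near-identical, and how the authors' counting assigned reads that match both genes is not given in the sources used here.

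The RefSeq promoter windows (GRCm38.p6, 250 bases before to 50 after each start) were read for the class I genes because the 3 genes with the most reads, B2m, H2-K1 and H2-D1, fell together and share a promoter module. The letters searched, on both strands, were a κB-like motif (GGG, any 2 bases, TT, any base, CC), TTTCNNTT (a core of the interferon-stimulated response element), TGACG (the X2 box) and ATTGG (the Y box), and they were chosen after these promoters had been read. In the stretch of H2-K1 at chr17:34000353-34000464 (minus strand, 117 to 6 bases before the start) and that of B2m at chr2:122147544-122147644 (plus strand, 143 to 43 bases before the start), capitals mark the motif matches.
H2-K1: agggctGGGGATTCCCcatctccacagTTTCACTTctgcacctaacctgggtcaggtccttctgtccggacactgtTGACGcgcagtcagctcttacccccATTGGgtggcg
B2m: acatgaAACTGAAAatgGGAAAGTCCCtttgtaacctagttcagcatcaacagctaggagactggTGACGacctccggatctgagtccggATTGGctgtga
In H2-K1 the κB-like motif came first and the interferon motif second, both read on the strand of the gene. In B2m the interferon motif stood first and was read on the opposite strand, as was the κB-like motif beside it. Neither stretch overlapped an annotated exon of GENCODE M21.

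The X2 and Y boxes are shown for the 3 genes with an X2 box followed by a Y box and for H2-Q7, a nonclassical heavy chain, to compare their spacing. Capitals mark the X2 box and the Y box.
B2m: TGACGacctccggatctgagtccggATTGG
H2-K1: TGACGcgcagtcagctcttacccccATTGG
H2-D1: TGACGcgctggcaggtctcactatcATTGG
H2-Q7: TGACGtgtaacagttctcacccctATTGG
These lie at chr2:122147609-122147638, chr17:34000359-34000388, chr17:35262993-35263022 and chr17:35439091-35439119. The gap between the boxes was 20 bases in B2m, H2-K1 and H2-D1 and 19 bases in H2-Q7. H2-K1 and H2-D1 were identical at 23 of 30 bases, while B2m matched H2-K1 at 13 and H2-D1 at 12 of 30, of which the boxes themselves are 10. The κB-like and interferon motifs of the heavy chains, again in capitals, are shown because their letters were the same in 3 genes.
H2-K1: GGGGATTCCCcatctccacagTTTCACTT
H2-D1: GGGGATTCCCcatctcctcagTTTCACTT
H2-Q7: GGGGATTCCCatctccccagTTTCACTT
Their positions are chr17:34000430-34000458, chr17:35262923-35262951 and chr17:35439022-35439049.

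Of 27025 promoter windows of the same length, 4.71% held the κB-like motif, 24.2% the interferon core, 21% X2, 37.9% Y, and 0.463% an X2 box followed by a Y box 15 to 25 bases on. All 4 motifs with X2 before Y were found in 7 windows, those of B2m, H2-K1, H2-D1, H2-Q7, H2-Aa (a class II chain), Trim26 and Nrarp. Of these, Trim26 had a log2 fold change of 0.37, Nrarp of -0.82 and H2-Aa of -0.76, none past the threshold (adjusted p = 0.133, 0.238 and 0.227, edgeR). Windows were found for 8 of the 10 genes, and for Tap1, Tapbp, Psmb8, Psmb9 and Psmb10 they held no X2 box followed by a Y box. RefSeq and GENCODE place the start 1 base apart for B2m, 3 bases apart for Tap1 and further apart for H2-D1, Tapbp, Psmb8, Psmb9 and Psmb10, so the windows of the last 5 may not be the promoter in use. A match is a description of letters and not a measured binding site.

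Tap1, Tap2, Psmb8 and Psmb9 lie side by side on chromosome 17 from 34181987 to 34216321. Psmb9 and Tap1 start head to head on opposite strands and share 212 exonic bases, Tap1 and Psmb8 are 495 bases apart, and Psmb8 and Tap2 are 2072 bases apart. Whether the counting used strand is not given in the sources used here, so reads in the shared bases cannot be told apart. The neighbours did not all pass the test.

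Tap1, a half-transporter (mm10 34187553 to 34197225), had 182, 171 and 172 CPM in WT and 142, 153 and 149 CPM in SIRPα KO. All SIRPα KO libraries were below all WT libraries, but the difference of -0.24 on the log2 scale (standard error 0.10) did not pass the test (adjusted p = 0.149, edgeR). For Tap2, its partner (34203527 to 34216321), WT had 302, 286 and 239.6 CPM and SIRPα KO 249, 234 and 227 CPM. WT replicate 3 fell among the SIRPα KO libraries, so the groups overlapped, and Tap2 differed by -0.22 on the log2 scale (standard error 0.12, adjusted p = 0.234, edgeR). Without that library, Tap2 fell by 0.31 on the log2 scale, with an adjusted p of 0.0265 from edgeR. Tap2 shares exonic bases with Gm15821 (533 bases) and Gm20496 (165 bases) on the opposite strand.

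Tapbp encodes tapasin, which bridges the transporter and empty class I molecules, and is on chromosome 17 from 33915899 to 33929292, 66724 bases from H2-K1. Its levels were 313, 336 and 374 CPM in WT and 253, 237 and 221 CPM in SIRPα KO. The lowest WT library was above the highest SIRPα KO library, and Tapbp fell by 0.52 on the log2 scale (standard error 0.11, adjusted p = 0.0288, edgeR). Of its exonic bases, 904 are shared with Gm19412 on the opposite strand and 149 with Zbtb22 on the same strand.

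Psmb8, whose product replaces PSMB5, lies from 34197721 to 34201454 and had 587, 552 and 788 CPM in WT and 435, 416 and 424 CPM in SIRPα KO. WT replicate 3 was far above the other WT libraries, and all WT libraries were above all SIRPα KO libraries. The log2 fold change of Psmb8 was -0.60 (standard error 0.14, adjusted p = 0.038, edgeR), and it was -0.41 without WT replicate 3, still past the threshold. Without WT replicate 1 it was -0.65 and missed the threshold (adjusted p = 0.0512, edgeR). Psmb8 shares 498 exonic bases with Gm20496 on the opposite strand.

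Psmb9, whose product replaces PSMB6, lies from 34181987 to 34187764. It had 74.5, 66.3 and 102 CPM in WT and 53.9, 56.7 and 54.9 CPM in SIRPα KO. The groups were apart, again with WT replicate 3 highest, and the log2 fold change of -0.56 (standard error 0.18) missed the threshold (adjusted p = 0.0802, edgeR). DESeq2 gave an adjusted p of 0.0321 for Psmb9, and without WT replicate 2 edgeR gave 0.0435 at a log2 fold change of -0.69. Without WT replicate 3, Psmb9 had -0.34 on the log2 scale (adjusted p = 0.0609, edgeR).

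Psmb10, whose product replaces PSMB7, is on chromosome 8 from 105935735 to 105938444. It had 82.3, 78.9 and 117 CPM in WT and 64.0, 67.6 and 73.6 CPM in SIRPα KO. The groups were apart by a small margin, and Psmb10 differed by -0.44 on the log2 scale, which did not pass the test (standard error 0.18, adjusted p = 0.134, edgeR). WT replicate 3 was far above the other WT libraries, and without it the difference of Psmb10 was -0.23 (adjusted p = 0.166, edgeR).

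Nlrc5, the class I transactivator, is also on chromosome 8, from 94434356 to 94527272. It had 83.3, 102 and 53.7 CPM in WT and 115, 114 and 108 CPM in SIRPα KO. All SIRPα KO libraries were above all WT libraries, although WT replicate 2 came close and WT replicate 3 was far below. The log2 fold change of Nlrc5 was 0.49 (standard error 0.22, adjusted p = 0.167, edgeR), and it ranged from 0.28 without WT replicate 3 to 0.71 without WT replicate 2. The direction was opposite to that of the other 9 genes, and whether Nlrc5 differed from them was not tested.

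Transcript length differed widely among the 10 genes, and the median log2 fold change of all genes rose from -0.55 among the shortest transcripts (204 to 1336 bases) to 0.47 among the longest, in deciles of genes whose average log2 CPM was 3 or more. B2m (860 bases) and Psmb10 (1311 bases) were in that shortest decile, and both had log2 fold changes of -0.44, above its median. Psmb8 (1907 bases) and H2-K1 (1874 bases) were in the decile with a median of -0.28, and H2-D1 (2102 bases) in that with -0.10. Psmb9 (2884 bases) and Tapbp (2898 bases) fell into deciles with medians of 0 and 0.09, and Tap2 (3442 bases) and Tap1 (3911 bases) into deciles with 0.13 and 0.21. Nlrc5 (7578 bases) was in the longest decile, whose median of 0.47 was close to its own 0.49. These lengths are of the longest annotated transcript of each gene, and which transcript the cells used was not measured. A gene read from a shorter transcript, as may hold for Psmb9, would belong in a lower decile and get another offset.

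**Figure D2:**
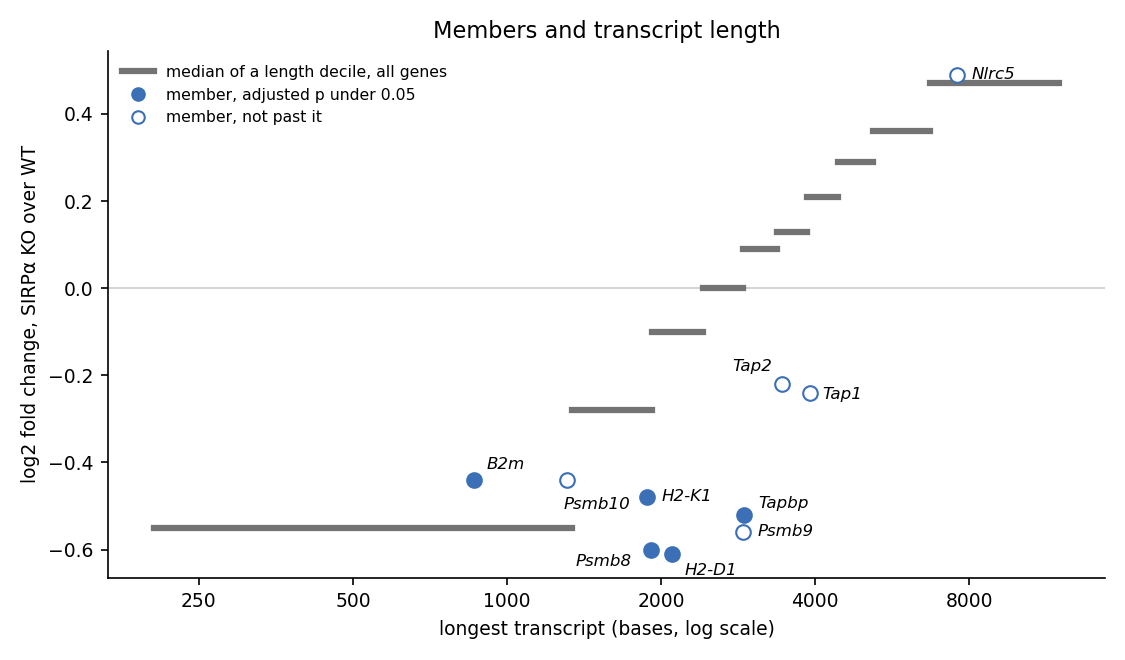
Log2 fold change of SIRPα KO over WT (y axis) against the length of the longest transcript in bases (x axis, log scale). Circles are the 10 genes, filled where the adjusted p was under 0.05, and grey bars are the medians of deciles of all genes by length (the last is drawn short of its longest transcript), which rise from -0.55 to 0.47; B2m, Psmb10 and Nlrc5 lie near their bars and Tapbp, Psmb9 and H2-D1 lie well below theirs.

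With an offset for transcript length and GC content in the fit, 8 genes were lower and 2 higher, their median was -0.24 on the log2 scale, and 8.85% of all genes were called. H2-D1 alone of the 10 was past the threshold, with a log2 fold change of -0.35 (adjusted p = 0.0107, edgeR with the offset). Tapbp and Psmb8 had -0.41 and -0.37 (adjusted p = 0.0656 and 0.0563), H2-K1 had -0.20 (adjusted p = 0.101) and B2m -0.17 (adjusted p = 0.3, all edgeR with the offset). Psmb9 kept most of its difference (-0.52), Tap1 had -0.29 and Tap2 -0.18. Psmb10 turned from -0.44 to 0.07, and Nlrc5 had 0.18.

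**Figure D3:**
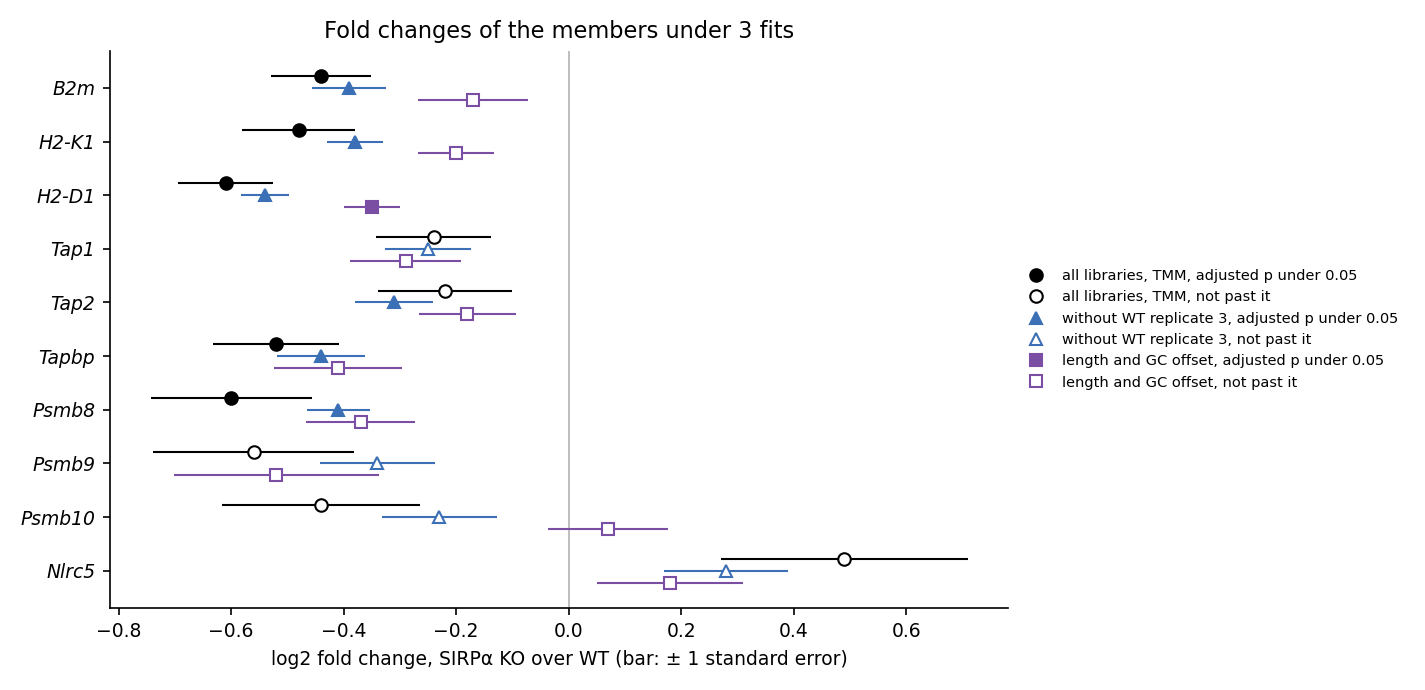
Log2 fold change of SIRPα KO over WT (x axis, bars are 1 standard error either side) for each of the 10 genes in the edgeR fits with all libraries (black circles), without WT replicate 3 (blue triangles) and with the length and GC offset (purple squares). Filled symbols had an adjusted p under 0.05: with all libraries these are B2m, H2-K1, H2-D1, Tapbp and Psmb8, and with the offset H2-D1.

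Levels were compared between genes per length, as TPM, in which counts are divided by the length of the longest transcript and scaled to a fixed total. A gene read mainly from a shorter transcript is placed too low by this measure, so the order depends on the annotation. The order in WT was B2m (6256 ± 422), H2-D1 (5314 ± 273), H2-K1 (2667 ± 124), Psmb8 (708 ± 74.8), Tapbp (249 ± 7.96), Tap2 (171 ± 33.7), Psmb10 (148 ± 19.3), Tap1 (95.1 ± 10.3), Psmb9 (59.0 ± 8.47) and Nlrc5 (22.7 ± 8.40 TPM, SD, n = 3 each). B2m and H2-D1 ranked 4 and 7 among all genes in WT by this measure. Neighbours in this order were apart in every WT library except Tap2 and Psmb10, whose ranges overlapped, with Tap2 at 133 to 196 TPM and Psmb10 at 134 to 170.1 TPM. The order was the same in SIRPα KO, from B2m at 5284 ± 247 TPM to Nlrc5 at 35.8 ± 1.20 TPM (SD, n = 3 each), and there Tap2 (159 to 174 TPM) was above Psmb10 (118 to 136 TPM) in every library. TAP1 and TAP2 work as a pair, and Tap1 was below Tap2 per length in every library.

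Ratios of reads between partner genes within a library do not depend on the scaling of libraries. They were not corrected for transcript length, with which fold changes of all genes varied and which differs between partners. Longest transcripts were 1907 bases for Psmb8 and 899 for Psmb5, 2884 for Psmb9 and 966 for Psmb6, and 1311 for Psmb10 and 2849 for Psmb7. For 3 against 3 libraries the exact two-sided permutation test cannot give a p below 0.1, so none of the 6 ratios could pass 0.05. The log2 ratio of Psmb8 to Psmb5 was 0.69, 0.51 and 0.41 in WT and 0.26, 0.27 and 0.14 in SIRPα KO. All SIRPα KO libraries were lower, with a difference of -0.31 (exact permutation p = 0.1, adjusted over the 6 ratios p = 0.4). The other 5 ratios overlapped between the groups. Psmb9 to Psmb6 differed by -0.13 and Psmb10 to Psmb7 by -0.12 (exact permutation p = 0.3 and 0.2). For H2-D1 to B2m the difference was -0.17, for H2-K1 to B2m -0.04 and for Tap1 to Tap2 -0.03 (exact permutation p = 0.2, 0.7 and 0.9). The adjusted p of these 5 ratios ranged from 0.4 to 0.9.

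**Figure D4:**
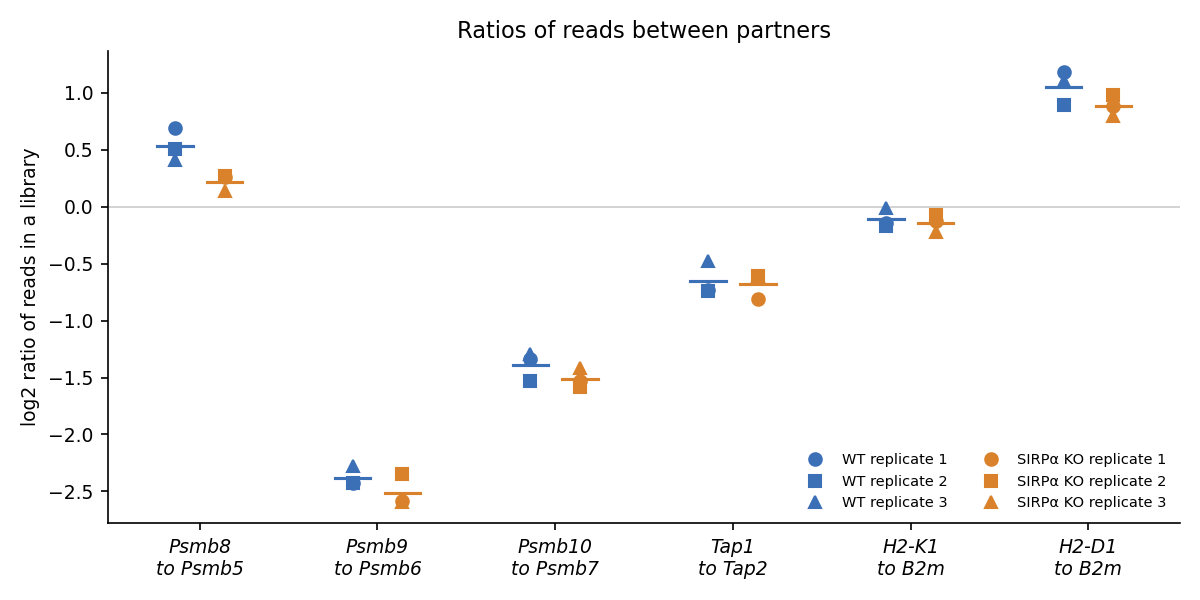
Log2 ratio of reads between partner genes in each library (y axis) for 3 immunoproteasome subunits against the constitutive subunit each replaces, Tap1 to Tap2, and 2 heavy chains to B2m, in WT (blue) and SIRPα KO (orange). Points are libraries and short lines are group means; the groups are apart for Psmb8 to Psmb5 alone.

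The constitutive partners themselves had log2 fold changes of -0.30 (Psmb5, adjusted p = 0.296), -0.42 (Psmb6, 0.0903) and -0.30 (Psmb7, 0.17, all edgeR), so none of them passed the test without an offset. With the length and GC offset, Psmb5 turned to 0.35 and was past the threshold (adjusted p = 0.0389, edgeR with the offset). Psmb6 then had 0.06 and Psmb7 -0.56 (adjusted p = 0.747 and 0.0712, edgeR with the offset). Psmb10 had 0.07 with the offset, above Psmb7, whereas without it Psmb10 had -0.44, below Psmb7. The direction of the Psmb10 to Psmb7 difference thus depended on the offset. Among 8 proteasome activators and constitutive catalytic genes, 1 rose and 1 fell past the threshold, where 11.7% of all genes tested were past it. Psme3, a nuclear proteasome activator, rose by 0.43 on the log2 scale (adjusted p = 0.0454, edgeR), and Pomp, the maturation chaperone of new proteasomes, fell by 0.57 (adjusted p = 0.0425, edgeR). The interferon-inducible activator genes Psme1 and Psme2 both had -0.48, with adjusted p of 0.0902 and 0.0524 from edgeR. The median of the 8 genes was -0.36. Psme3 had an adjusted p of 0.061 without WT replicate 2 (edgeR). With the length and GC offset, Psme3 and Pomp had 0.40 and -0.81 (adjusted p = 0.0334 and 0.047, edgeR with the offset). Psme1 and Psme2 had -0.17 and 0.03 (adjusted p = 0.403 and 0.866, edgeR with the offset), and the median of the 8 genes was -0.071.

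Of 23 other class I heavy chain genes, 17 were in the table and 15 passed the filter on low counts. Their median log2 fold change was -0.45, 14 had negative values and 2 fell past the threshold, where 5.81% of all genes tested fell past it. H2-Q6 had 339, 379 and 341 CPM in WT and 211, 233 and 242 CPM in SIRPα KO. Its groups were well apart, and it fell by 0.62 on the log2 scale (standard error 0.11, adjusted p = 0.0173, edgeR). H2-Q4, with 21.9, 17.1 and 28.4 CPM in WT and 11.2, 12.8 and 10.9 CPM in SIRPα KO, fell by 0.95 (standard error 0.23, adjusted p = 0.0399, edgeR). H2-Q7, whose promoter stretch is printed above, had a log2 fold change of -0.37 (adjusted p = 0.081), and H2-T23, the mouse Qa-1 heavy chain, had -0.38 (adjusted p = 0.0786, both edgeR). H2-T10 and H2-T22 are near-identical, so their separate values are uncertain. H2-Q6 aligned with H2-Q4 at 93.8% identity over 85.6% of its length. How reads that match several heavy chains were assigned is not given, so the values of these genes may not be separate. H2-K2 and H2-T10 are annotated as pseudogenes. With the length and GC offset, H2-Q6 had -0.39 and H2-Q4 -0.84 (adjusted p = 0.0595 and 0.0532, edgeR with the offset), and without WT replicate 1 the adjusted p of H2-Q4 was 0.065. Across the 5 lists of pathway genes, 15 genes were past the threshold with all libraries and none when any 1 SIRPα KO library was left out or libraries of one code were summed.

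The chaperones, trimming peptidases and translocon genes gave values in both directions. Of 21 genes, 5 rose and 3 fell past the threshold, and the median was 0.41. Of all genes tested, 5.94% rose and 5.81% fell past it. The cytosolic peptidases Tpp2, Lap3 and Thop1 rose by 1.09, 0.74 and 0.54 on the log2 scale (adjusted p = 0.0351, 0.0166 and 0.0426, edgeR), and the endosomal aminopeptidase gene Lnpep rose by 0.90 (adjusted p = 0.0315, edgeR). Tpp2 had 139.8, 153 and 72.1 CPM in WT and 262, 254 and 259 CPM in SIRPα KO, so every SIRPα KO library was above the highest WT library. Ganab, a glucosidase subunit of the calnexin cycle, rose by 0.40 (adjusted p = 0.0396, edgeR). Bcap31, Sec61b and Sec61g, which encode an export receptor and 2 small translocon subunits, fell by 0.41, 0.65 and 0.72 (adjusted p = 0.0312, 0.0439 and 0.0474, edgeR). Erap1, which trims peptides in the endoplasmic reticulum, had a log2 fold change of 0.72 (adjusted p = 0.0594, edgeR). With the length and GC offset, Lap3, Thop1, Tpp2 and Sec61g were past the threshold at 0.73, 0.75, 0.66 and -0.68, whereas Lnpep (0.26), Ganab (0.24), Bcap31 (-0.14) and Sec61b (0.03) were not. Without WT replicate 1, the adjusted p of Tpp2, Lnpep, Thop1, Ganab and Bcap31 was 0.0548, 0.0622, 0.0813, 0.0618 and 0.0561 (edgeR).

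**Figure D5:**
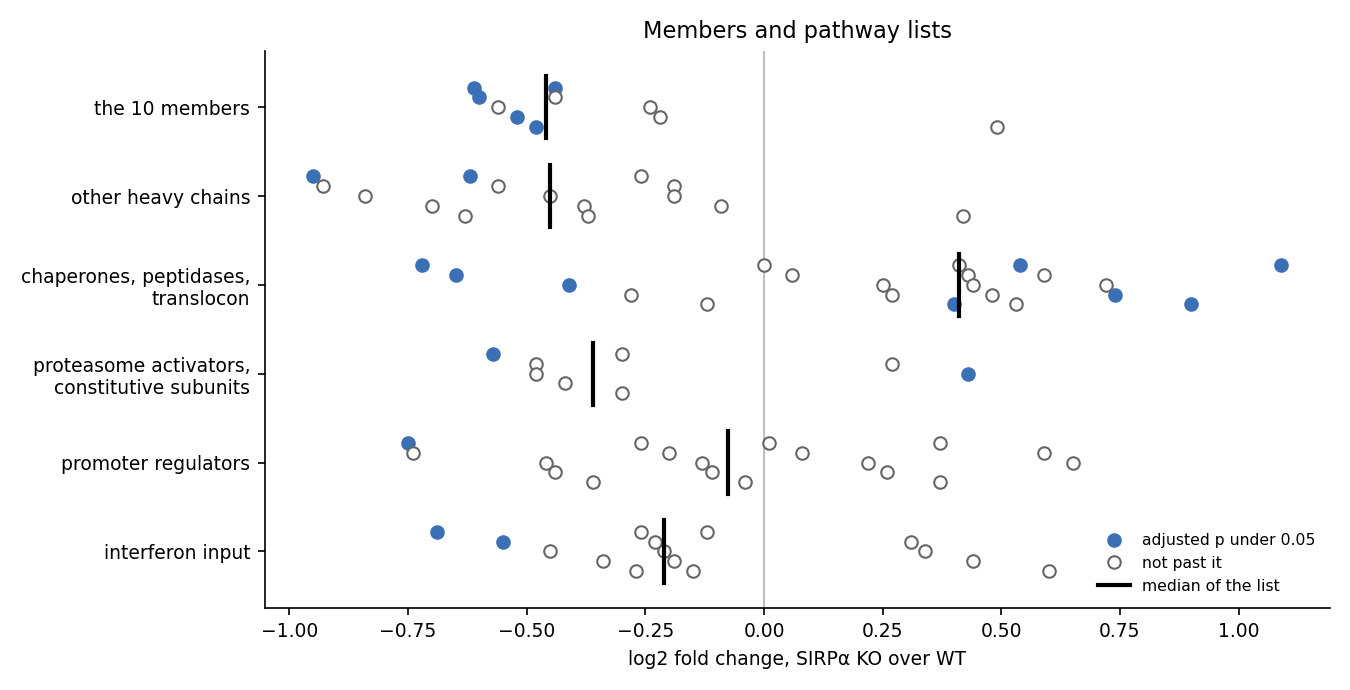
Log2 fold change of SIRPα KO over WT (x axis) for the 10 genes and 5 lists of pathway genes, 1 circle a gene, filled where the adjusted p was under 0.05; height within a row has no meaning. Black lines are the medians, which are -0.46 for the 10 genes, -0.45 for the other heavy chains and 0.41 for the chaperones, peptidases and translocon genes.

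Of 18 genes for factors that act on class I promoters, 1 fell and none rose past the threshold, with a median of -0.07. Of all genes tested, 5.81% fell and 5.94% rose past it, so 1 call of 18 is no more than that share. Nfkb1, which encodes the p105 precursor and p50 subunit of NF-κB, had 337, 335 and 316 CPM in WT and 205, 189.7 and 194 CPM in SIRPα KO. The groups were far apart relative to their spread, and Nfkb1 fell by 0.75 on the log2 scale (standard error 0.10, adjusted p = 0.0101, edgeR). With the length and GC offset its log2 fold change was -1.10. Rfx5, a subunit of the factor that binds the X1 box, had 0.65 (adjusted p = 0.128) and Irf1 -0.13 (adjusted p = 0.595, both edgeR). Ciita, the class II transactivator, had 4 to 41 reads in a library.

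Of 20 genes for interferons, their receptors, kinases and targets, 19 were in the table, 15 were tested, none rose and 2 fell past the threshold, with a median of -0.21. Of all genes tested, 11.7% were past it in either direction and 5.81% fell. Socs1 and Socs3, inhibitors of cytokine receptor kinases, fell by 0.69 and 0.55 on the log2 scale (adjusted p = 0.0367 and 0.0461, edgeR). With the length and GC offset they had -0.53 and -0.33 (adjusted p = 0.084 and 0.169, edgeR with the offset), and without WT replicate 2 the adjusted p of Socs3 was 0.0634. Jak1 had 0.60 and Ifngr1 -0.45 (adjusted p = 0.101 and 0.192, edgeR). Ifng reads numbered 0 to 7 per WT library and 0 in every SIRPα KO library. Ifit1, Ifit3 and Mx1 had 0 reads in every WT library and in SIRPα KO replicate 1, and at most 19 in another SIRPα KO library. The interferon targets Isg15, Irf7, Gbp2 and Cxcl10 had -0.21, -0.26, -0.19 and -0.27 and overlapped between the groups (adjusted p = 0.798, 0.623, 0.693 and 0.787, edgeR).

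Some markers of other cell types that carry class I molecules also moved with genotype, where 11.7% of all genes tested were past the threshold. B cell markers summed to 216 to 479 CPM in WT and 23.1 to 84.6 CPM in SIRPα KO, and 5 of the 6 tested fell past the threshold, among them Cd79a, Cd79b and Ighm. NK cell markers summed to 16.0 to 26.7 CPM in WT and 1.73 to 3.73 CPM in SIRPα KO, with 4 of 6 past it, and T cell markers to 18.6 to 23.5 and 4.77 to 5.56 CPM, with 1 of 2 past it. Most of the T cell sum was that gene, Cd3g (18.7, 16.4 and 21.2 CPM in WT and 3.64, 3.15 and 3.47 CPM in SIRPα KO). Cd3e overlapped between the groups (log2 fold change -0.33, adjusted p = 0.78, edgeR), and Cd3d, Cd4, Cd5 and Trac were below the filter on low counts. Dendritic cell markers summed to 102 to 108 and 76.6 to 91.4 CPM, with 1 of 4 past it. None of the 7 macrophage or 3 mast cell and basophil markers tested was past the threshold, and the sums overlapped (42.1 to 139 and 78.3 to 121 CPM for macrophages, 18.6 to 36.0 and 1.61 to 35 CPM for mast cells and basophils). Without WT replicate 3, all 8 macrophage markers tested were higher in SIRPα KO and 3 rose past the threshold, with a median log2 difference of 1.57 against 0.31 with all libraries. C1qb and Fcgr1, which were below the filter on low counts, had 0 reads in every WT library and 6 to 12 in the SIRPα KO libraries. Epithelial, endothelial and stromal markers summed to 67.7 to 92.5 and 49.2 to 113 CPM, with Epcam lower and Pecam1 higher among 4 tested. Pax5, Cd8a, Cd8b1, Clec9a, Cd209a, Cdh5, Col1a1 and Pdgfra had no column in the table. Within SIRPα KO, replicate 1 had the lowest sum of B cell markers, with 98 reads of Ighm against 932 and 789, and of the 10 class I genes it was the highest SIRPα KO library for 5 (H2-K1, Tap2, Tapbp, Psmb8 and Nlrc5), the lowest for 3 (Tap1, Psmb9 and Psmb10) and between the others for B2m and H2-D1. Some of these ranks rested on small gaps, as for H2-K1 (1706, 1693 and 1692 CPM in the SIRPα KO libraries). The part of these other cell types in the difference of the class I genes was not tested, and in bulk samples fewer cells of a type and less RNA per cell cannot be told apart.

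The genes most like B2m, Tap1 and Nlrc5 were found by the root mean square difference of log2 CPM, each centred over the 6 libraries, among 9145 genes. Nearest to B2m were Stard3, Zfp36l1 and Ebp, with differences of 0.0381, 0.0381 and 0.0413 on the log2 scale. Gimap9, Tcirg1 and Ilk were nearest to Tap1 (0.0163, 0.0286 and 0.0328), and Chfr, Dnajc10 and Uhrf2 to Nlrc5 (0.0456, 0.0533 and 0.0540). None of the 9 belongs to the 10 genes or to the pathway lists.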

How the data were processed

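RNA of cultured lung ILC2s was sequenced in bulk, with 3 libraries from WT and 3 from SIRPα KO mice. The authors deposited estimated counts per gene, not scaled, from reads that STAR, run in Partek, aligned to mm10 (annotation GENCODE M21). The submitters' processing notes name Partek 10.0 and STAR 2.7.8, and the methods of the paper name other versions. Rules for reads on overlapping genes and the use of strand are not given in the sources used here. Gene columns were used through a list of 153 by name, and the other 17678, which hold estimated counts too, were not listed one by one.

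Counts were rounded to whole numbers, filtered by edgeR's filterByExpr with its minimum count of 10 and minimum total of 15, scaled by TMM and then tested with edgeR 4.0.16 (quasi-likelihood, genotype alone, R 4.3.3, limma 3.58.1), with Benjamini-Hochberg adjustment over 13623 genes and a threshold of 0.05. Standard errors of edgeR fits are the size of the log2 fold change divided by the square root of the F statistic of the test. They therefore hold no information beyond that test. DESeq2 1.42.0 was an alternative. The length and GC offset used splines of 5 degrees of freedom, 1 for length and 1 for GC content, fitted per library over 9025 genes. Other scalings, filters, a replicate block, summing libraries of one code and leaving out each library in turn were also tried. Near-identical copies were sought with BLAST+ 2.17.0, with an identity of 95% or more over 50% or more of a transcript. Promoter windows came from RefSeq, and figures were drawn with matplotlib 3.10.9.

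The 10 genes, the lists and the length and GC offset were chosen with earlier results of these data known. All 10 genes were named. From each pathway list the genes past the threshold were named, at most 8 by size of change, and other pathway genes named were chosen after their values were seen, as were H2-Aa, Trim26 and Nrarp, which the motif search found. On simulated data with 13711 genes, 200 of them changed, edgeR recovered 141 and called 10 unchanged genes, and with the offset it recovered 139 and called 9. DESeq2 recovered 153 and called 21. These figures describe the simulated data alone. Whether they hold for the real libraries, whose spread was unequal between the genotypes, was not tested. Nor was it tested whether they hold for changes as small as those of the 10 genes. Counts of 811 to 91700 reads per library lay behind each of the 10 genes.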

Additional observations from a re-analysis of the deposited data

How the results depend on the processing

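Of 150 combinations of the 10 genes with 15 alternatives, 119 kept direction and side of the threshold, 27 were no longer past it, 3 were newly past it and 1 changed sign. The sign change was that of Psmb10, at 0.07 (log2) with the length and GC offset. Among the pathway genes that also turned with that offset were Sec61b, Psmb5, Psmb6 and Psme2, to 0.03, 0.35, 0.06 and 0.03. The number of the 10 genes past the threshold was 5, against 1 with that offset, 0 with libraries of one code summed and 0 to 6 when 1 library was left out; at an unadjusted p under 0.05 it was 8, against 5 to 9 when 1 library was left out. Over all genes the count was 1600, against 3118 with DESeq2, 10 with libraries of one code summed and 16 to 2606 when 1 library was left out. In the 5 pathway lists it was 15, against 30 with DESeq2, 8 with no filter on low counts, 0 with libraries of one code summed and 0 to 30 when 1 library was left out. Among the fits that left out 1 library, each of these counts at the adjusted threshold was lowest without a SIRPα KO library and highest without WT replicate 3, and that of the 10 genes was as high without WT replicate 2. The cause was not tested. Upper quartile scaling moved the median of all genes from -0.025 to -0.125, and the 10 genes kept their directions.

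The same replicate number did not pair WT and SIRPα KO libraries: correlations of their deviations were -0.14, 0.18 and 0.03, and not every library correlated best with its own number. With the replicate number as a block, 1118 genes were past the threshold, 3 of the 10 genes and 7 in the pathway lists.

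With the union of exons in place of the longest transcript, WT levels per length were 8330 for B2m, 5767 for H2-D1, 2264 for H2-K1, 531 for Psmb8, 265 for Tapbp and 208 TPM for Tap2, in the same order; those of the other 4 genes moved by less than 1 SD. The precision is limited by 3 libraries a group from 2 codes and by the spread among WT libraries.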
